A study of Mus musculus with 2 samples.

Results

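The genes described here are the mesenchymal basic helix-loop-helix (bHLH) genes Twist1 and Twist2, the genes of their E-protein partners Tcf3, Tcf4 and Tcf12, the genes Id1, Id2, Id3 and Id4 of their inhibitors, and Hdac9, the neighbour of Twist1. They are 10 of 22238 protein-coding gene names in the annotation (GENCODE vM1, build mm9). Their binding regions for the forkhead factor Foxf2 were taken as the peaks whose centre lay inside the gene, or whose nearest protein-coding transcription start site (TSS) was that of the gene and lay within 100 kb. There were 27 such peaks of 9165 in all. The genes were selected on values of this list, the presence, number and scores of their peaks, so the presence, number and strength of their peaks are given as a description and were not tested.

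The peaks came from sequencing of chromatin immunoprecipitated with an antibody to FLAG (ChIP-seq). The tissue was the palatal shelves of mouse embryos, the outgrowths that fuse to form the palate. Embryos were homozygous for a 3xFLAG tag on the endogenous Foxf2 protein (Foxf2FLAG/FLAG), and 50 pairs of shelves were collected at embryonic day E13.5. The ChIP library held 26849463 tags and was compared with 1 input library of the same tissue and stage, made without the antibody. The shelves were pooled, untagged embryos were not analysed here, and neither library has a replicate, so every difference between peaks lacks a replicate check. Peaks mark bound DNA in a mixture of shelf cells, and no expression values were used here, so the cell types were not checked.

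Twist proteins act in cranial mesenchyme as dimers with E proteins and bind the E-box, a short sequence written CANNTG (N for any base). The form CATCTG, which reads CAGATG on the other strand, is a form bound by Twist dimers. Id proteins have the helix-loop-helix part but no DNA-binding part, and hold E proteins in dimers that cannot bind an E-box. In humans, mutations of TWIST1 or TCF12 cause premature fusion of skull sutures, and in mice Twist1 is needed in neural crest cells for the face. Hdac9 encodes a class IIa histone deacetylase, and DNA within the gene is known to hold enhancers of Twist1 in mouse limb buds and branchial arches. Forkhead proteins such as Foxf2 bind related sequences, here searched on both strands as ATAAACA or GTAAACA, and with a T for the C of each as ATAAATA or GTAAATA.

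The sequences that follow show the forkhead sites and E-boxes at these genes. They are written 5′ to 3′ on the plus strand of mm9, with every forkhead site and every E-box on either strand in capitals. The first is shown because its peak had the most ChIP tags of the list, and it begins in a coding part of Hdac9. The next 3 show the closest pair of a forkhead site and CATCTG in a Twist2 or Tcf12 peak. The last has a forkhead site between E-boxes, upstream of Hdac9. Sequences at Tcf4 and Id4 and in untranslated exons are not shown.
Twist1/Hdac9, 94.7 kb downstream of the Twist1 TSS (chr12:34737169-34737428): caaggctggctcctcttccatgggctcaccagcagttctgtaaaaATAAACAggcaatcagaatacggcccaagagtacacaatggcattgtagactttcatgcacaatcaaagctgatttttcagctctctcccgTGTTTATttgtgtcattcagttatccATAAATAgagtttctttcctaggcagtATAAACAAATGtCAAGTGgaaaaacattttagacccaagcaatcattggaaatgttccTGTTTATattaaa
Twist2, 23.0 kb upstream (chr1:93674739-93674858): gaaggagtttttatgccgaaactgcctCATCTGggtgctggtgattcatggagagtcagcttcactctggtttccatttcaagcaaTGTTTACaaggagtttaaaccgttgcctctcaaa
Twist2, 22.2 kb downstream, in the intron (chr1:93720269-93720388): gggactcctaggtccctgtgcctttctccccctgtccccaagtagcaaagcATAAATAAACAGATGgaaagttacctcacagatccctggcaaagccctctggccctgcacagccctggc
Tcf12, 22.5 kb downstream of an alternative TSS (chr9:71721439-71721558): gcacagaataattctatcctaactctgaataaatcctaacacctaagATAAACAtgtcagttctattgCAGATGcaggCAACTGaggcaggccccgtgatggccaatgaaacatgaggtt
Hdac9, 70.1 kb upstream (chr12:35283769-35283968): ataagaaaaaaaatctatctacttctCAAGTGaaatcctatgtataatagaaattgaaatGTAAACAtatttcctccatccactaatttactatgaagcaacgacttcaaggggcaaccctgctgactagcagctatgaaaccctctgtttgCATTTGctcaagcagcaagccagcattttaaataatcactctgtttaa

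Foxf2-FLAG peaks were assigned to 7 of the 10 genes. Over all protein-coding genes 22.1% had an assigned peak. The 7 genes were Twist1, Twist2, Hdac9, Tcf3, Tcf4, Tcf12 and Id4, and Id1, Id2 and Id3 had none. The median over the 10 genes was 2 assigned peaks, against 0 over all genes. At least 3 peaks were assigned to Twist1, Twist2, Hdac9, Tcf4 and Tcf12, against 1.86% of all genes, and at least 5 to Twist1 and Tcf4, against 0.378%. The Twist and E-protein genes thus had peaks, and of the Id genes Id4 had. Most of all protein-coding genes had none either, and the genes described here were selected on their peaks. The Id genes are 1.16 to 2.61 kb long, and the rule counts peaks inside a gene. The part of gene length was not tested.

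The 27 peaks held 1876 ChIP and 86 input tags. A single peak in Hdac9 held 693 of the ChIP tags (36.9%). The other peaks were mostly of ordinary strength for the list: over the 27, ChIP tags ranged from 15 to 693 with a median of 35, against a median of 30 (14 to 693) over all peaks. The deposited fold over input ranged from 10.15 to 35.1 with a median of 12.89, the same median as over all peaks (10.03 to 173). The peak caller's score ranged from 17 to 209 with a median of 30, against 25 over all peaks (17 to 271). The authors' threshold was a 10-fold excess, and 13 of the 27 peaks rested on a single input tag. Exact 95% intervals of the fold cover counting error only, since neither library has a replicate. They reached below 10 at all but 1 of the 27 peaks, the exception being the 693-tag peak.

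**Figure D1:**
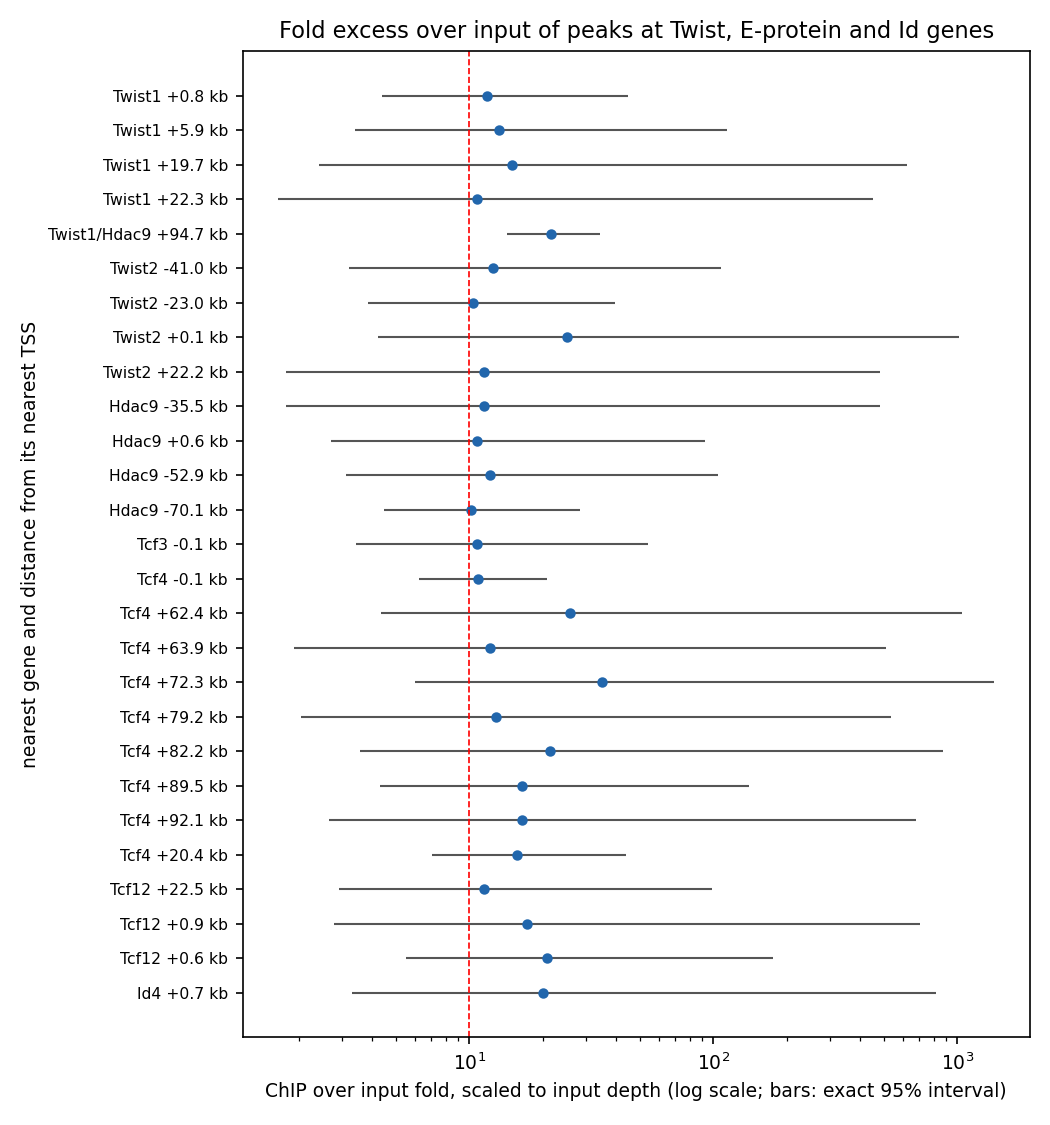
Fold of ChIP over input tags (log axis, scaled to the input depth) for the 27 peaks at Twist, Hdac9, E-protein and Id genes, 1 row per peak, labelled with the gene and the distance from its nearest TSS, which for Tcf4 and Tcf12 is often an alternative TSS and not the 5′ end. Points are the authors' fold, bars the exact 95% interval for counting error, and the dashed line the 10-fold threshold. The interval of the peak shared by Twist1 and Hdac9 (14.3 to 34.3) lies above the line and the others cross it.

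Twist1 (chr12:34642536-34644682, plus strand) is a short gene with 5 assigned peaks, all in or downstream of it. The peak in the gene, at chr12:34642925-34643844, had 66 ChIP and 4 input tags, an excess of 11.8-fold (95% interval 4.40 to 44.7). Its centre lay in the coding part of exon 1, 0.848 kb from the TSS, and neither a forkhead site nor an E-box was found anywhere in the region. The peak 5.94 kb downstream had 37 tags against 2 (13.25-fold, 3.42 to 113.5), with 1 ATAAACA and 2 E-boxes outside its centre. The Twist1 gene itself was thus covered by a peak without these sites. It had more tags than 83.0% of the list, but a higher fold than only 31.1%.

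Farther downstream, also in intergenic sequence, lay a pair of peaks with fewer tags than the median of the list. Each held 1 forkhead site, outside its central 200 bp. The one 19.7 kb downstream had 21 ChIP tags and 1 input tag (15.04-fold, 2.42 to 622). It held 2 E-boxes, 1 of them CATCTG in its centre. The one 22.3 kb downstream had 15 tags against 1 (10.7-fold, 1.65 to 452) and held 7 E-boxes in 500 bp, none of them CATCTG. Their intervals overlap each other and those of the peaks nearer the gene.

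The peak with the most ChIP tags of the whole list lay inside Hdac9, yet nearest to the TSS of Twist1. It spanned chr12:34736623-34737752, 94.7 kb downstream of the Twist1 TSS and 476.6 kb from the 5′ end of Hdac9, and ranked second by score (209). It had 693 ChIP and 23 input tags, an excess of 21.6-fold (14.3 to 34.3). Its fold was higher than that of 88.9% of the list (rank 1017). Its region was 1129 bp wide, and no peak of the list had more input tags. Of its 7 forkhead sites, 5 read ATAAACA and 1 read GTAAACA. The region also held 4 E-boxes, none of them CATCTG, and none of these was in its central 200 bp. In the printed stretch, which holds 5 of the forkhead sites, the last bases of an ATAAACA are the first bases of an E-box of the form CAAATG, and a further E-box, CAAGTG, follows within a few bases. This peak carried 83.3% of the ChIP tags of the Twist1 peaks and 80.8% of those of the Hdac9 peaks.

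Hdac9 (chr12:34732451-35213754, minus strand) had 4 further peaks, all weaker. The strongest, 70.1 kb upstream at chr12:35283618-35284118, had 85 ChIP and 6 input tags (10.15-fold, 4.47 to 28.4). It held 3 forkhead sites, and in its central 200 bp, printed above, GTAAACA lies between the E-boxes CAAGTG and, read on the plus strand, CATTTG. The peak 52.9 kb upstream had 34 tags against 2 (12.2-fold, 3.12 to 104.6). The peak 0.561 kb from the TSS, in an untranslated exon, had 30 tags against 2 (10.7-fold, 2.73 to 92.8). It was the 1 promoter peak of the 8 within 1 kb of a TSS with both ATAAACA and CATCTG in its centre. The weakest, in an intron 56.0 kb from the 5′ end, had 16 tags against 1 (11.5-fold, 1.78 to 481). Without the 693-tag peak, ChIP tags per kb of called region were 57.5 at Twist1 (48.3 to 67.8) and 82.5 at Hdac9 (70.4 to 96.1).

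Twist2 (chr1:93698038-93744605, plus strand), the Twist1 paralogue of dermal and other mesenchyme, had 4 assigned peaks with 16 to 58 ChIP tags. The one with the most tags, 23.0 kb upstream at chr1:93674755-93675255, had 58 ChIP and 4 input tags (10.4-fold, 3.85 to 39.4). All 3 of its E-boxes were CATCTG, and its forkhead site was GTAAACA, 53 bases from the nearest of them. The promoter peak, 0.121 kb from the TSS at chr1:93697825-93698493, had 35 tags against 1 (25.1-fold, 4.21 to 1018). It was GC-rich (73.0% in the central 200 bp) and held neither kind of site.

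The other Twist2 peaks joined both kinds of site in their centres. The one 41.0 kb upstream had the highest score of the gene (33), with 35 tags against 2 (12.5-fold, 3.22 to 107.6), ATAAACA and CAAATG. The one in the intron, 22.2 kb downstream, was the weakest, with 16 tags against 1 (11.5-fold, 1.78 to 481). There an ATAAATA overlaps an ATAAACA, which in turn ends with the bases that begin CAGATG. Over all peaks, ATAAACA or GTAAACA overlapping CAGATG in this way was found in 11 central windows and 7 flanks, so the arrangement was rare in both. In total, Twist2 peaks held 5 CATCTG among 9 E-boxes, in 2 of 4 regions. Of the 5, 3 lay in the region 23.0 kb upstream. Over all peaks, 4621 of 27695 E-boxes were CATCTG, and 37.6% of regions held this form.

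Tcf4 (chr18:69503800-69847621, plus strand) encodes an E protein and is not the Wnt effector Tcf7l2. It had 9 assigned peaks, all inside the gene, which is 343.8 kb long, and 0.0135% of all protein-coding genes had at least 9. The promoter peak, 0.26 kb from the 5′ end at chr18:69503583-69504538, had 197 ChIP and 13 input tags (10.85-fold, 6.20 to 20.8), more tags than 99.01% of the list. Its region was 955 bp wide, and its fold was higher than that of only 16.2% of the list, its score than that of 77.5%. It was GC-rich (71.0%) and held GTAAACA and ATAAACA but a single E-box, outside its centre. The peak with the highest score (99) lay 269.7 kb into the gene, in an intron, at chr18:69772950-69774096, and had 132 tags against 6 (15.8-fold, 7.05 to 43.7). It held 9 E-boxes, 2 of them CATCTG, and 1 forkhead site, none of them wholly inside its central 200 bp.

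The other 7 Tcf4 peaks lay together in 1 intron. They spanned 30.1 kb, with centres 64.5 to 94.1 kb from the 5′ end of the gene. They had 17 to 49 ChIP tags and scores of 17 to 44, on both sides of the medians of the list (30 tags, score 25), and together held 219 ChIP and 8 input tags. The one with the most tags, 74.3 kb from the 5′ end at chr18:69577756-69578522, had 49 tags against 1, the highest fold of the 27 peaks (35.1, 6.01 to 1414). An E-box was present in the centre of 6 of the 7 and a forkhead site in the centre of 3, while 5 of the 7 regions held a forkhead site. CATCTG was in the centre of 1 of the 7, 91.6 kb from the 5′ end. Among all peaks farther than 1 kb from a TSS, 67.8% had a central E-box, 51.5% a central forkhead site and 19.7% a central CATCTG.

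Tcf12 (chr9:71692059-71959626, minus strand), another E-protein gene, had 3 peaks inside the gene. The strongest, in the first intron 0.603 kb from the 5′ end at chr9:71958670-71959376, had 58 ChIP and 2 input tags (20.8-fold, 5.50 to 175.6). It was GC-rich (72.5%), with CAAGTG in its centre and no forkhead site. The peak 216.6 kb into the gene lay 0.891 kb from an alternative TSS and had 24 tags against 1 (17.2-fold, 2.80 to 707), 3 E-boxes and no forkhead site. The peak 238.3 kb into the gene had the highest score of the gene (35), with 32 tags against 2 (11.5-fold, 2.92 to 98.7). In the printed window its ATAAACA stands 14 bases from CAGATG, and the E-box CAACTG follows. No Tcf12 peak had a forkhead site or CATCTG in its central 200 bp, while 2 of the 3 regions held CATCTG nearer their edges. Over all peaks, 37.6% of regions held CATCTG.

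Tcf3 (chr10:79872259-79896392, minus strand), the E-protein gene also known as E2A, had a single peak. It lay at the promoter, 0.144 kb upstream of the TSS at chr10:79896133-79896939, with 45 ChIP and 3 input tags (10.7-fold, 3.45 to 54.1) and a score of 25. It held no forkhead site and 2 E-boxes, 1 of them CATCTG, both outside the centre. The E-protein genes thus differed in number of peaks, from 9 at Tcf4 to 3 at Tcf12 and 1 at Tcf3. Their lengths fell in the same order, 343.8, 267.6 and 24.1 kb. The rule counts peaks inside a gene, and the part of gene length in these counts was not tested.

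Among the Id genes, Id4 (chr13:48356796-48359405, plus strand) had 1 peak. It lay in the first intron, 0.689 kb from the TSS at chr13:48357141-48357829, with 28 ChIP tags and 1 input tag (20.1-fold, 3.32 to 820), no forkhead site and 2 E-boxes outside its centre. The peak nearest to Id3 was 73.9 kb from its TSS and 11.1 kb from that of Asap3, and had 43 tags against 2. The peak nearest to Id2 was 153.8 kb upstream, beyond the limit, although Id2 was its nearest gene (28 tags against 2, with 3 forkhead sites in its centre). The peak nearest to Id1 was 296.1 kb away, next to Xkr7 (62 tags against 2). Just inside the limit stood the 693-tag peak at 94.7 kb from Twist1. Just outside stood a peak 102.4 kb downstream of the Twist2 TSS, with 101 tags against 6 and a score of 73, which was assigned to Hdac4, 27.3 kb from the TSS of that gene.

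**Figure D2:**
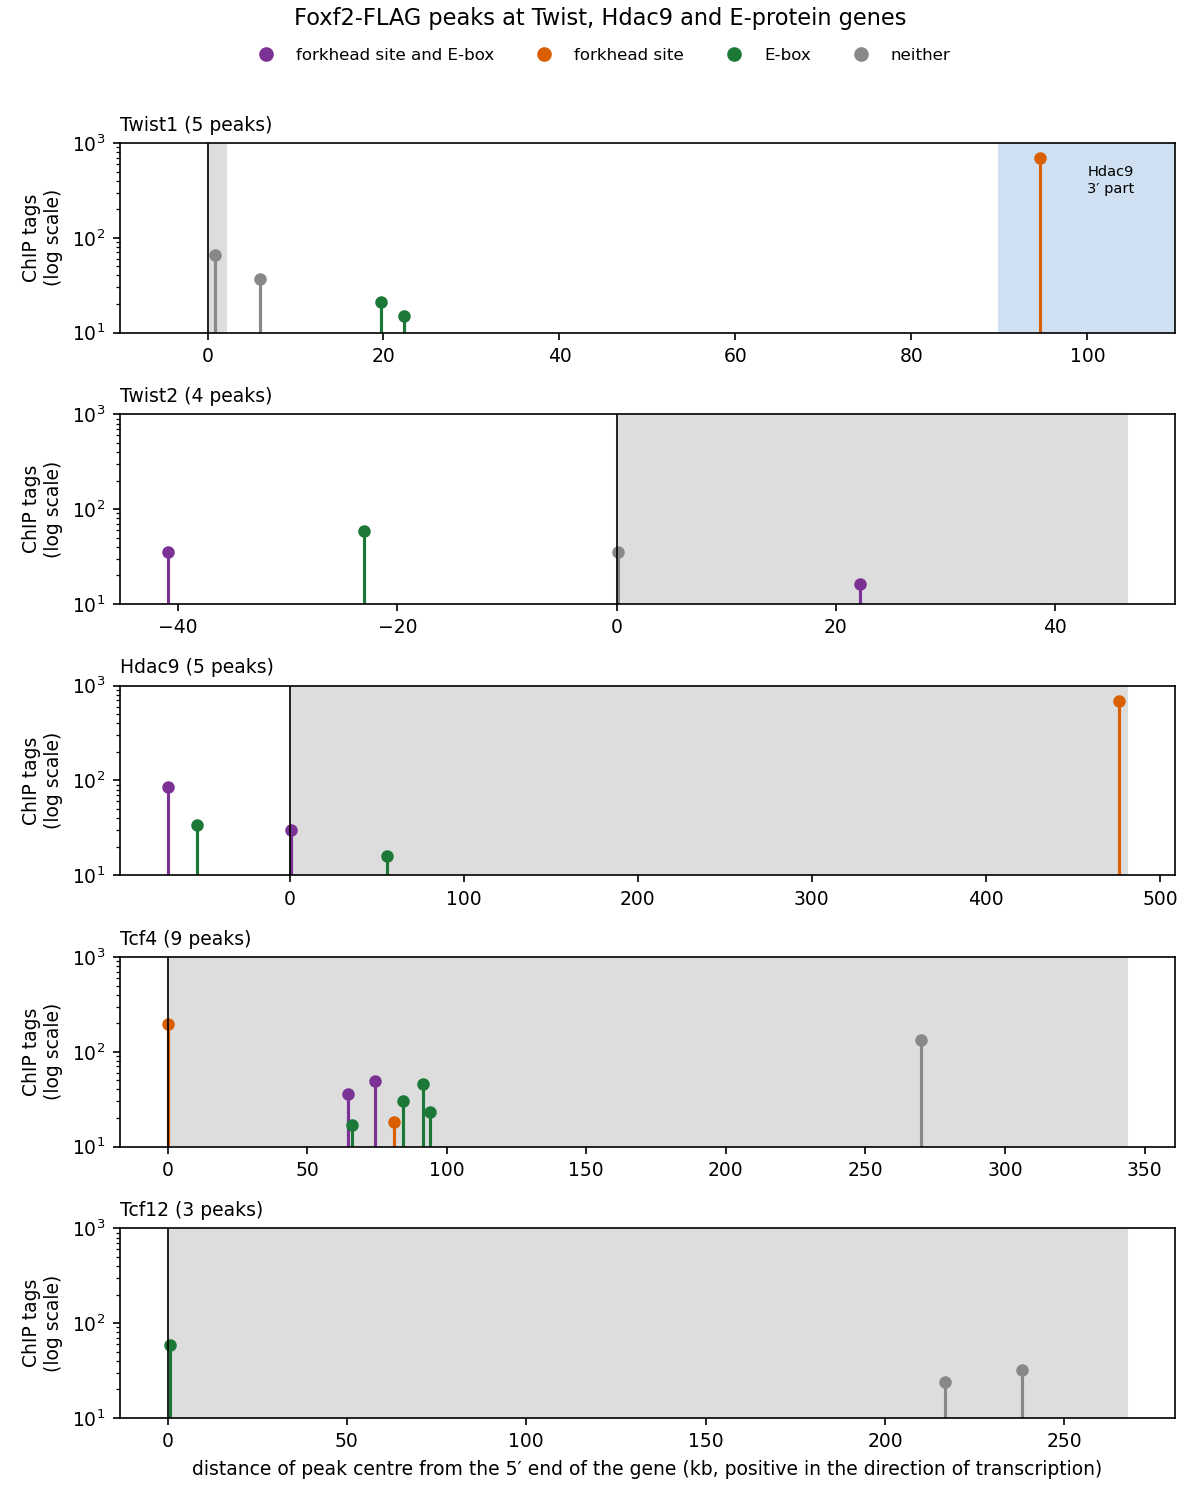
ChIP tags of each peak (log axis) by distance from the 5′ end of the gene in kb, for Twist1, Twist2, Hdac9, Tcf4 and Tcf12, with the gene body shaded grey and the 3′ part of Hdac9 shaded blue in the Twist1 panel. Colours show which sites the central 200 bp held. The 693-tag peak stands near the 3′ end of Hdac9, and 7 Tcf4 peaks with 17 to 49 tags gather between 64.5 and 94.1 kb.

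Per kb of called region, ChIP tags were 274.2 at Hdac9 (Poisson 95% interval 256.2 to 293.2) and 234.5 at Twist1 (218.8 to 251.0), both set by the shared peak. They were 91.4 at Tcf4 (83.9 to 99.3), 66.8 at Tcf12 (55.1 to 80.3), 66.4 at Twist2 (56.0 to 78.2), 55.8 at Tcf3 (40.7 to 74.7) and 40.7 at Id4 (27.0 to 58.8). Of the 548 Tcf4 tags, the promoter peak held 197 and the peak 269.7 kb into the gene 132. The other 7 Tcf4 peaks together held 219. The intervals cover counting error only, since neither library has a replicate. The genes were selected on the presence, number and scores of their peaks, so these values are a description. The order of the genes was not tested.

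Forkhead sites were present in the central 200 bp of 9 of the 27 peaks (33.3%, Wilson 95% interval 18.6 to 52.2). The share over all peaks was 40.8%, inside this interval. In windows of the same width 2000 bp to the side, 3 of the 27 peaks had a forkhead site (11.1%), against 18.2% of all peaks. Twist1 had 1 peak with a central site, Twist2 2, Hdac9 3 with the shared one, Tcf4 4, and Tcf3, Tcf12 and Id4 none. Over whole regions, 18 of 27 peaks held a forkhead site (66.7%), against 64.3% of all peaks. No difference in forkhead content from the list as a whole was detectable with 27 peaks.

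E-boxes of any form were in the centres of 16 of the 27 peaks (59.3%, 40.7 to 75.5), and 60.4% of all peaks had one. In the flanks, 13 of the 27 had one (48.1%), against 66.4% of all peaks. The form CATCTG was in 5 of the 27 centres (18.5%, 8.18 to 36.7) and 1 of the 27 flanks, where 16.1% of all centres had it. The 5 peaks were 1 at Twist1, 2 at Twist2, 1 at Hdac9 and 1 at Tcf4. Over whole regions, 10 of the 27 peaks held CATCTG (37.0%), against 37.6% of all peaks. Per kb of region, the 27 peaks held 4.02 E-boxes and 0.828 CATCTG, against 5.08 and 0.847 over all peaks. The Tcf4 regions held 24 E-boxes, of which 3 were CATCTG, the Tcf12 regions 8, of which 2 were, and the Twist2 regions 9, of which 5 were. Of the 5 at Twist2, 3 lay in 1 region. Over all peaks, 4621 of 27695 E-boxes were CATCTG. E-boxes per kb were 4.001 at Tcf4, 4.69 at Tcf12 and 4.15 at Twist2. No excess of E-boxes at the Twist and E-protein loci over the list as a whole was therefore detectable with 27 peaks.

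A forkhead site and an E-box stood together in the centres of 6 of the 27 peaks (22.2%, 10.6 to 40.8), against 28.0% of all peaks. Of the 6, 2 each were at Twist2, Hdac9 and Tcf4. The median gap between the nearest such pair was 30.5 bases in the 6 peaks and 23 bases over the 2568 peaks of the list with both. CATCTG with TAATT or AATTA, a homeobox core, within 10 bases was found in 0 of the 27 regions (Wilson upper bound 12.5%), against 2.24% of all regions.

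**Figure D3:**
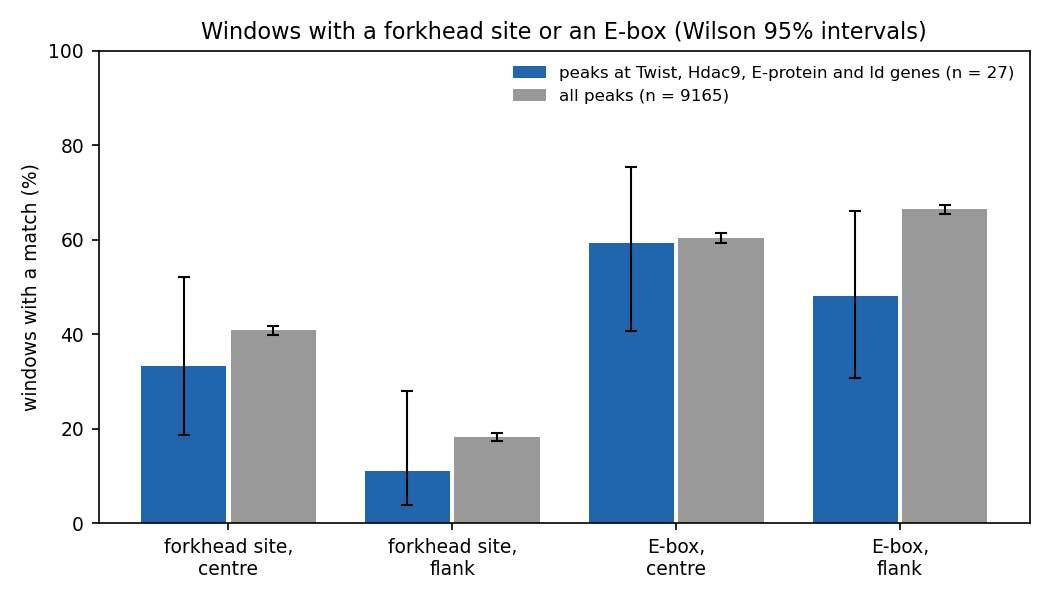
Share of 200 bp windows (%) with a forkhead site or an E-box at the peak centres and in flanks 2000 bp away, for the 27 peaks at Twist, Hdac9, E-protein and Id genes and for all 9165 peaks. Bars are shares and lines Wilson 95% intervals. The interval of the 27 centres contains the share of all centres for both kinds of site.

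**Figure D4:**
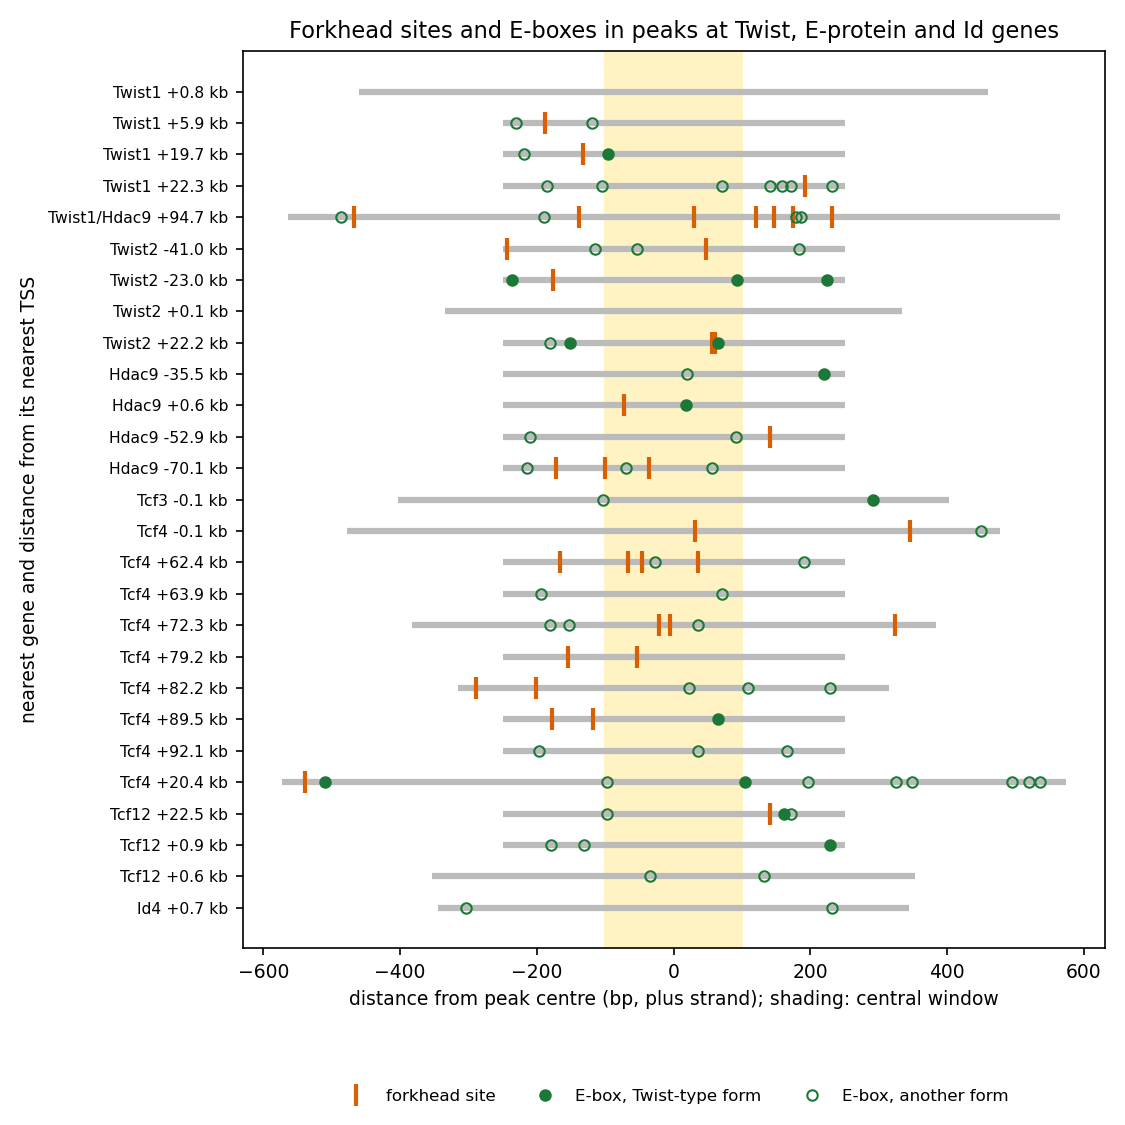
Position of each forkhead site and E-box by distance from the peak centre (bp), 1 row per region, for the 27 regions; the Twist-type form is CATCTG, bars show the width of each region and the shading the central 200 bp. The 693-tag region has 7 forkhead sites, and the region 23.0 kb upstream of Twist2 has 3 CATCTG and no other E-box.

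Position near a TSS went with base composition in the 27 peaks, and with both kinds of site over the list. Of the 27 peaks, 8 lay within 1 kb of a TSS (29.6%), and 25.7% of all peaks did. In these 8, the median GC content of the centre was 64.0%, against 46.0% in the other 19. E-boxes were in the centres of 2 of the 8 and 14 of the 19 (73.7%), compared with 38.9% of all promoter peaks and 67.8% of all other peaks. Forkhead sites were in 2 of the 8 and 7 of the 19 (36.8%), compared with 9.89% and 51.5% over the list. The Wilson intervals of the 8 and the 19 overlapped for forkhead sites (7.15 to 59.1 and 19.1 to 59.0). They also overlapped for E-boxes (7.15 to 59.1 and 51.2 to 88.2). Overlap of separate intervals does not show that the 8 and the 19 are alike, and their difference was not tested. The part of base composition in the E-box shares was not tested.

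Over the whole list, 3 of the 10 E-box forms (30.0%) were more frequent at centres than in flanks and 6 were less frequent (exact McNemar test, adjusted over the 10 forms). CATCTG was in 16.1% of centres and 14.4% of flanks, a ratio of 1.12 (exact McNemar adjusted p = 0.00272). With flanks taken on the other side of the peaks, the ratio was 1.06 and the call was lost (exact McNemar test, adjusted p = 0.0791). CAGCTG, the form at the 1 intronic Hdac9 peak, was in 11.8% of centres and 8.71% of flanks (ratio 1.35, exact McNemar adjusted p = 6.59e-11), and CACGTG in 3.00% and 2.50% (ratio 1.20, exact McNemar adjusted p = 0.0457). CACCTG was less frequent at centres (ratio 0.772, exact McNemar adjusted p = 1.40e-09), and so was CAAGTG (ratio 0.788, exact McNemar adjusted p = 7.96e-08), which occurred at 4 of the 27 centres. The other 4 less frequent forms were CAAATG at a ratio of 0.891, CAACTG at 0.887, CAATTG at 0.826 and CACATG at 0.845. In the 6808 peaks farther than 1 kb from a TSS, CATCTG was at a ratio of 1.32 (exact McNemar adjusted p = 1.86e-12), CAGCTG at a ratio of 1.47 (exact McNemar adjusted p = 5.46e-14), and CACCTG at 0.70 (exact McNemar adjusted p = 2.28e-12). The other forms did not pass in these peaks: CACGTG was at a ratio of 1.18 and CAAGTG at 0.925 (exact McNemar adjusted p = 0.18 for each), CAATTG at 0.956, and CAAATG at 1.08, CAACTG at 1.06 and CACATG at 1.03 had ratios above 1. CATATG, found in the centre of 1 Tcf4 peak, passed in neither set (over all peaks, ratio 0.927, exact McNemar test, adjusted p = 0.231).

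Further genes around Twist were read in the same way. Of 25 genes that act with or under Twist1 or belong to the class IIa deacetylases and their MEF2 partners, 18 had an assigned peak (72.0%), with a median of 1 peak. The highest scores were at Zeb2 (95), a zinc finger repressor of mesenchymal cells, Hdac4 (73), a class IIa deacetylase, Msx2 (57), a homeodomain factor of skull sutures, and Fgfr2 (53), a growth factor receptor of the sutures. Of 39 other tissue-restricted bHLH genes, 5 had one (12.8%), with a median of 0. Among them were Tcf21 (score 22), Hand2 (18), Myog (18) and Atoh8 (17), and these 4 scored below the median of the list. The difference between the lists was not tested, and 22.1% of all genes had a peak.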

How the data were processed

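The submitters' processing notes name Bowtie 1.0.0, SAMtools 0.1.19, HOMER and the build mm9; no HOMER version was found in these notes. Peak calling, per the file headers, used HOMER findPeaks in histone style, with 1 ChIP library set against 1 library of input DNA. The deposited signal is the ChIP tag number of a peak scaled to 10000000 tags, and multiplied back by the total it lay within 0.134 of a whole number for each peak. At most 1 tag per position was counted, per the file headers. Another deposited signal column holds input tags, with 0.5 where there were none. The deposited fold is the ratio of scaled ChIP to input tags, the deposited score is HOMER's own, and the authors' deposited p-value and clonal ratio were not used.

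Peak ends were checked against the NCBIM37 assembly, the assembly of mm9. Peak centres are the midpoints of the called regions, and the place of most tags within a region was not used. Distances run from peak centres to the nearest start of a protein-coding transcript. Sites were searched in the central 200 bp, in flanks 2000 bp towards lower coordinates, and in whole regions, which are 500 bp or wider. Fold intervals are exact conditional on both tag numbers. The exact McNemar test was tested on simulated data (Python 3.11.15, SciPy 1.17.1, pysam 0.24.0). Simulated centres and flanks had the same base composition, so an effect of unlike composition was not covered. All 10 genes are named, and list genes by their 4 highest scores; Atoh8 was named after its value was seen. A gene of these lists and a sequence that the rules would show are not reported here. Genes, lists and tests were chosen with earlier results of these data known. Settings varied were the limit, the TSS set, the thresholds, the windows and the flanks.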

Additional observations from a re-analysis of the deposited data

How the results depend on the processing

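The 6 results were recomputed under 4 to 8 alternatives each, 39 values in all. Of these, 32 stayed within 1.5 times of a count, inside the Wilson interval of a share, or on the same side of the test. With a fold of at least 15, 12 of the 27 peaks were left. The share of the 27 peaks with CATCTG was 3.70% in a window of 100 bp and 37.0% over whole regions, and that with a forkhead site was 59.3% in a window of 400 bp, 66.7% over whole regions and 11.1% for GTAAACA alone; a wider search holds more sites by construction. The ratio of CATCTG at all centres to flanks was 1.06 with flanks on the other side (exact McNemar test, adjusted p = 0.0791), and 1.05 to 1.42 over these 8 alternatives. Genes with an assigned peak numbered 5 to 8, against 7, and peaks 12 to 31, against 27. The number of E-box forms above their flanks was 2 in 5 of 8 alternatives, against 3. No paired analysis was possible because there is 1 library of each kind. Depth limits most of all the 13 peaks with a single input tag.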

Other observations

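The peak with the second most ChIP tags of the list also lay near Twist1, but beyond the limit of 100 kb. It spanned chr12:34359620-34360912, 282.3 kb upstream of the Twist1 TSS in intergenic sequence, with Twistnb as the nearest gene, 245.8 kb away. It had 441 ChIP and 18 input tags, an excess of 17.6-fold (10.98 to 29.9), and held 3 forkhead sites and 8 E-boxes. A pair of peaks with fewer tags lay 241.3 and 239.2 kb upstream of Twist1, nearest to Ferd3l, another bHLH gene, with 42 tags against 3 (score 32) and 57 tags against 4 (score 62), where the 441-tag peak had a score of 57. Within 400 kb of the Twist1 TSS there were 8 peaks. Upstream of Tcf4, beyond the limit, 3 peaks stood 211.7 to 225.3 kb from the 5′ end of the gene, the strongest with 102 tags against 7 and a score of 81. These peaks were singled out after their values were seen.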
